A study of Mus musculus with 8 samples.

Results

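Tanycytes of the third ventricle were followed through 9 genes that mark them or work in them, in bulk hypothalamic RNA of female mice. The genes are *Rax*, *Lhx2*, *Dio2*, *Crym*, *Gpr50*, *Nes*, *Vim*, *Frzb* and *Col25a1*. They were chosen by name as tanycyte markers, genes of thyroid hormone handling and progenitor genes, and were matched by Ensembl identifier. They are 9 of the 55890 genes in the count table, and all 9 were among the 18637 genes that passed the filter on low counts and were tested. RNA came from the hypothalamus of 16-week-old females of 2 genotypes, with 4 pools per genotype and 2 animals in each pool. POMC-C451Af/f mice have a floxed *Esr1* allele with the C451A mutation, recombined by Cre under a *Pomc* promoter. The mutation is meant to remove the membrane-initiated signaling of estrogen receptor alpha from cells in which that promoter is active. The labels call the controls wildtype, whereas the methods describe littermates homozygous for the floxed allele and without Cre. In the second case both genotypes share the floxed allele and differ in the Cre transgene and its recombination. The comparison asks whether tanycyte transcripts differ between the genotypes.

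Tanycytes are elongated glial cells that line the floor and lower walls of the third ventricle and send a long process into the arcuate nucleus or the median eminence. They stand between the cerebrospinal fluid, the blood and the neurons that control feeding and the pituitary, and they activate thyroid hormone for the neighbouring tissue. They also keep features of neural progenitors in the adult brain. POMC neurons, the cells at which the Cre transgene is directed, lie close to them in the arcuate nucleus.

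Summed over genes, POMC-C451Af/f pools held 36095253 to 40498166 estimated counts and control pools 37841365 to 48942116. Levels are given as CPM, counts scaled to a common library size with TMM factors. *Esr1*, the mutated gene, was counted in every pool, at 9.997 to 12.2 CPM in POMC-C451Af/f mice and at 11.6 to 16.0 CPM in controls. These counts do not separate the mutated transcript from the intact one and carry no check of the genotype. The tissue was checked with 16 genes of hypothalamic neurons, of which 15 were tested and *Kiss1* was not. *Pmch*, the gene of melanin-concentrating hormone, was the most abundant of them per kb of transcript, at a mean of 619 CPM per kb. Among the tanycyte genes *Rax*, their defining transcription factor, had 47.0 to 125 estimated counts per pool. All 12 genes of a further list of tanycyte markers also passed the filter.

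Some pools stood apart in lists of genes that mark midbrain dopaminergic neurons, the anterior pituitary and the thalamus. The source of these transcripts was not tested. A list of 8 genes of midbrain dopaminergic neurons summed to 316, 251, 495 and 360 CPM in POMC-C451Af/f pools 1 to 4, and to 220, 207, 254 and 272 CPM in control pools 1 to 4. POMC-C451Af/f pools 3 and 4 were the highest of all, and pool 2 lay within the range of the controls. All 8 genes of the list had higher estimates in POMC-C451Af/f mice with an unadjusted p under 0.05, their most abundant gene per kb was *Aldh1a1*, and none was at 0 in any pool. *Slc6a3*, the dopamine transporter, ranged from 4.24 to 90.0 CPM, with a log2 fold change of 1.86 (unadjusted p of 0.0107). The log2 fold change was 1.99 for *En1* (unadjusted p of 0.0102), 1.23 for *Pitx3* (0.0258) and 1.06 for *Chrna6* (0.0169), and 0.48 for *Aldh1a1* (0.0087), 0.32 for *Slc18a2* (0.0243) and 0.27 for *Ddc* (0.0405). The list median was 0.80, and 0.31 without POMC-C451Af/f pools 3 and 4. In that fit all 8 estimates were still higher, but only *Th* (0.28, unadjusted p of 0.0067) and *Aldh1a1* (0.22, unadjusted p of 0.0403) had a p under 0.05, and *Slc6a3* was at 0.88 (unadjusted p of 0.192). The 5 tested genes of a list of 8 anterior pituitary genes summed to 225, 33.6, 17.9 and 189 CPM in POMC-C451Af/f pools 1 to 4, and to 1450, 96.8, 22.5 and 33.5 CPM in control pools 1 to 4. Control pool 1 was far above the rest in this list, mainly through *Prl*, its most abundant gene, at 1013 CPM. The pituitary genes *Lhb*, *Fshb* and *Pou1f1* did not pass the filter. A list of 6 thalamus genes summed to 718.6, 586.7, 930.2 and 760.1 CPM in POMC-C451Af/f pools 1 to 4. In control pools 1 to 4 it summed to 548.7, 828.8, 654.5 and 627.6 CPM. POMC-C451Af/f pool 3 and control pool 2 were the highest. Its median log2 fold change was 0.17 with 0 of 6 estimates lower, and -0.034 with 3 of 6 lower without POMC-C451Af/f pools 3 and 4.

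**Figure D1:**
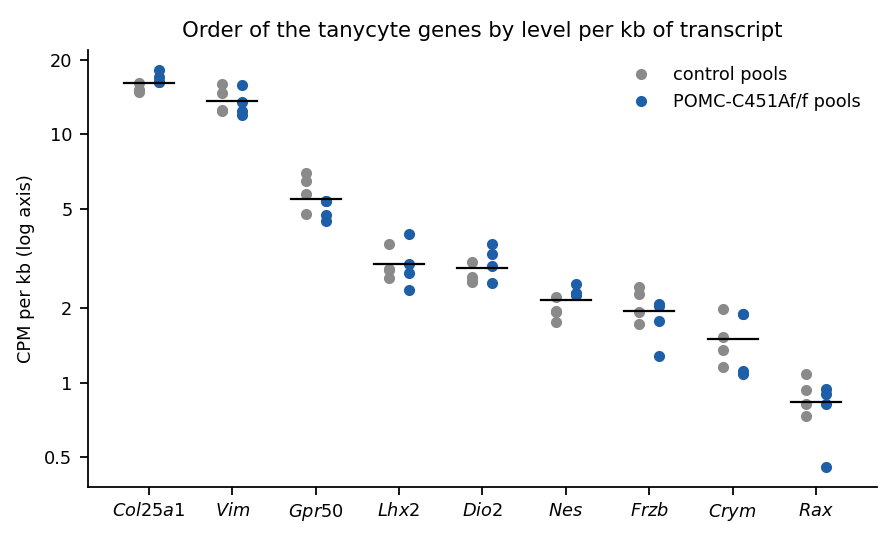
Level of each tanycyte gene per kb of its longest annotated transcript, on a log axis, in the 4 control pools (grey) and the 4 POMC-C451Af/f pools (blue). The black line is the mean of the 8 pools, from 16.1 CPM per kb for Col25a1 down to 0.837 CPM per kb for Rax.

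Per kb of transcript the 9 genes spanned a 19.2-fold range of levels, as the plot of levels per kb shows. *Col25a1* was the highest at 16.1 ± 1.14 CPM per kb (SD, n = 8 pools), followed by *Vim* at 13.6 ± 1.62 CPM per kb. *Col25a1* lay above 77.1% of the tested genes with a length, and *Vim* above 73.4%. The pools of these 2 genes overlapped in level per kb, whereas those of *Vim* and *Gpr50*, at 5.50 ± 0.875 CPM per kb, did not. *Lhx2* at 3.01 CPM per kb and *Dio2* at 2.90 CPM per kb could not be ordered, since their pools overlapped. The pools of *Nes* (2.15 CPM per kb), *Frzb* (1.94 CPM per kb) and *Crym* (1.50 CPM per kb) overlapped from each gene to the next as well. *Rax* was the lowest at 0.837 ± 0.186 CPM per kb, above 22.2% of the tested genes, and its pools overlapped with those of *Crym*.

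**Figure D2:**
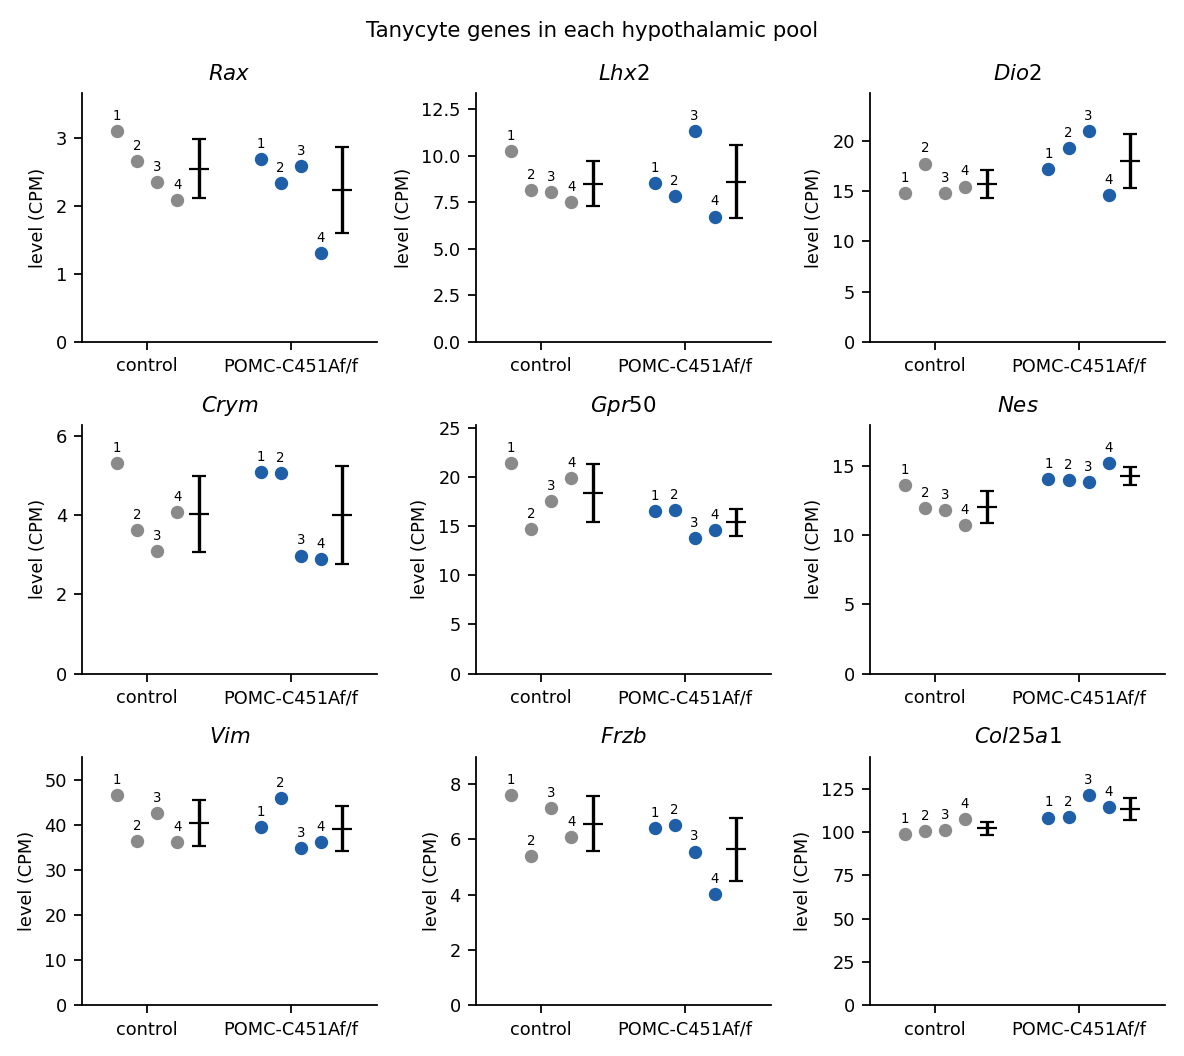
Level of the 9 tanycyte genes in CPM in each control pool (grey) and POMC-C451Af/f pool (blue), with the replicate number above each point. The black bars are the mean ± SD of 4 pools, and only Nes and Col25a1 have all POMC-C451Af/f pools above all control pools.

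No tanycyte gene passed the threshold of the comparison, which was a false discovery rate of 0.05 with an absolute log2 fold change over 0.5. In edgeR's quasi-likelihood test 0 of 9 genes were called, where 4 genes, or 0.0215% of all tested genes, were called in all. DESeq2 also called 0 of the 9. An unadjusted p under 0.05 was found for 3 of the 9 genes in either tool, against 5.1% of all genes tested with edgeR and 2.81% with DESeq2. These 2 shares are over unlike sets, since DESeq2 was fitted to every gene with a count, without the filter on low counts. With each pool left out in turn the edgeR share ran from 3.37% (without control pool 1) to 9.38% (without POMC-C451Af/f pool 2), and it was 3.04% without POMC-C451Af/f pools 3 and 4. *Nes* and *Col25a1* had the higher level in POMC-C451Af/f mice, 2 of 9 against 2.7% of all tested genes, and *Gpr50* the lower, 1 of 9 against 2.39%. The pools of the 2 genotypes did not overlap for 2 of the 9 genes, against 2.78% of all tested genes. With a list of 9 each of these shares rests on 1 to 3 genes. The lowest adjusted p among the 9 was 0.878. In bulk RNA, fewer tanycytes and less RNA per tanycyte cannot be told apart.

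Estimates were higher in POMC-C451Af/f mice for 4 of the genes and lower for 5. The median log2 fold change was -0.0012 over the 9 genes and 0.00085 over all tested genes. That of the 9 genes ran from -0.13 without POMC-C451Af/f pool 2 to 0.12 without control pool 1, and was 0.079 without POMC-C451Af/f pools 3 and 4. The median absolute log2 fold change was 0.19 for the 9 genes and 0.060 for all tested genes. The within-genotype coefficient of variation was between 4.66% for *Col25a1* and 27.4% for *Crym*, with a median over all tested genes of 7.42%.

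**Figure D3:**
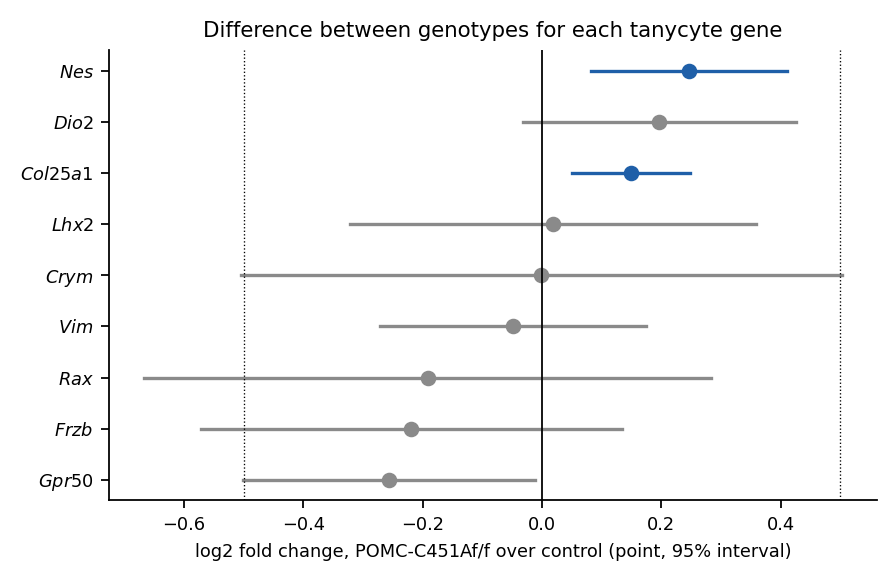
Log2 fold change of POMC-C451Af/f over control for each tanycyte gene, with the 95% interval from edgeR's quasi-likelihood fit. Blue marks the 2 genes whose pools do not overlap, the dotted lines stand at the fold change threshold of 0.5 in either direction, and estimates run from -0.26 for Gpr50 to 0.25 for Nes.

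*Rax* (ENSMUSG00000024518.5) encodes the homeodomain factor that specifies tanycytes and is kept on in them through adult life. Its level was 2.69, 2.34, 2.58 and 1.31 CPM in POMC-C451Af/f pools 1 to 4, and 3.10, 2.66, 2.35 and 2.09 CPM in control pools 1 to 4. POMC-C451Af/f pool 4 was the lowest of all 8 and the other 7 pools overlapped between genotypes. The log2 fold change was -0.19 (95% interval -0.67 to 0.28), and edgeR gave an adjusted p of 0.912. Without POMC-C451Af/f pool 4 it was -0.0074, so that the estimate rested on that pool, which held 47.0 counts of *Rax*. It was -0.09 without control pool 1 and -0.019 without POMC-C451Af/f pools 3 and 4. The interval with all pools extended past the fold change threshold on its lower side.

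*Lhx2* (ENSMUSG00000000247.12) encodes a LIM homeodomain factor that is needed for the development of tanycytes. It was at 8.52, 7.82, 11.3 and 6.73 CPM in POMC-C451Af/f pools 1 to 4, and at 10.3, 8.16, 8.04 and 7.50 CPM in control pools 1 to 4. POMC-C451Af/f pools 3 and 4 were the highest and the lowest of all pools, and enclosed every control. Its log2 fold change was 0.019 (95% interval -0.32 to 0.36). Of the 2 transcription factors neither had a p under 0.05 in any of the 16 alternative fits.

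*Dio2* (ENSMUSG00000007682.9) encodes the type 2 deiodinase, with which tanycytes convert thyroxine to the active hormone triiodothyronine. Its level was 17.2, 19.3, 21.0 and 14.7 CPM in POMC-C451Af/f pools 1 to 4, and 14.9, 17.8, 14.8 and 15.5 CPM in control pools 1 to 4. POMC-C451Af/f pools 2 and 3 were above every control, while pool 4 was below every control. On the log2 scale the difference was 0.20 (95% interval -0.03 to 0.43), with an unadjusted p of 0.0854 and an adjusted p of 0.878 (edgeR). It was 0.28 with an unadjusted p of 0.0083 without POMC-C451Af/f pool 4, and 0.12 with an unadjusted p of 0.268 without pool 3. Without both of these pools it was 0.21 (unadjusted p of 0.0398), and without control pool 2 it was 0.26 (unadjusted p of 0.0363). On GRCm38 the gene lies on chromosome 12 from 90724552 to 90738438, on the minus strand. Its upstream sequence is shown because it is the one member promoter with a match to a cAMP response element. This is the 250-base stretch before the RefSeq start, chr12:90739039-90739288 on the minus strand of GRCm38.p6, which holds no annotated exon and lies within the annotated gene *Gm26512*. The capitals mark TGACGTCA, the cAMP response element, from 95 bases before the start, and TATAAA, the TATA box, from 30 bases before the start:
Dio2 upstream: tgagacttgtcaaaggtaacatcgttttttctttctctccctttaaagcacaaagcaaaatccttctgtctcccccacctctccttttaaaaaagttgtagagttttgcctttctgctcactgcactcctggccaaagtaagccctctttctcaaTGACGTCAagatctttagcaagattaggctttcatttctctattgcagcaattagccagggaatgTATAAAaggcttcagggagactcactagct
Searched on both strands, TGACGTCA was in 1.79% and TATAAA in 13.6% of all 32851 promoters of 300 bases in the table. Among the members, TATAAA was also in that of *Vim*. These 2 motifs were chosen after the sequence had been seen.

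*Crym* (ENSMUSG00000030905.6) encodes mu-crystallin, a cytosolic protein that binds thyroid hormone. It was at 5.09, 5.05, 2.98 and 2.89 CPM in POMC-C451Af/f pools 1 to 4, and at 5.31, 3.62, 3.09 and 4.08 CPM in control pools 1 to 4. The POMC-C451Af/f pools fell into a high pair, pools 1 and 2, and a low pair, pools 3 and 4, with 3 of the 4 controls between them. The log2 fold change was -0.0012 (95% interval -0.51 to 0.50), the widest interval of the 9. Pools 3 and 4 are also those with the highest midbrain list, and their part in this spread was not tested. Without both of them the log2 fold change of *Crym* was 0.34 with an unadjusted p of 0.119.

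The other genes of thyroid hormone handling were examined as a list of 11, of which 9 were tested and the deiodinase genes *Dio1* and *Dio3* were not. None was called, and 4 of 9 had a lower estimate with an unadjusted p under 0.05 in edgeR's quasi-likelihood test, against 0 of 9 with a higher one. Of all tested genes 2.39% had a lower and 2.7% a higher estimate with such a p. The list median was -0.08 on the log2 scale, with 7 of 9 estimates lower. Without POMC-C451Af/f pools 3 and 4, where *Dio3* was also tested, the median was -0.016 with 5 of 10 lower. With the midbrain list mean as a covariate it was -0.070 with 7 of 9 lower. The midbrain list itself summed to a mean of 355 CPM in POMC-C451Af/f pools and 238 CPM in control pools. Here and below, the fit with this covariate therefore cannot separate its part from that of genotype. *Thrb*, the beta receptor of thyroid hormone, was at 23.4, 24.1, 23.1 and 23.3 CPM in POMC-C451Af/f pools 1 to 4, and at 26.8, 26.1, 24.9 and 24.8 CPM in control pools 1 to 4. Every POMC-C451Af/f pool lay below every control, by little. Its log2 fold change was -0.13 (95% interval -0.21 to -0.04), with an unadjusted p of 0.0076. *Thra*, the alpha receptor and the most abundant of the list per kb, had a log2 fold change of -0.08 with an unadjusted p of 0.0486.

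*Hr*, a corepressor whose gene is itself switched on by thyroid hormone in the brain, was at 82.1, 112, 97.0 and 59.3 CPM in POMC-C451Af/f pools 1 to 4. In control pools 1 to 4 it was at 126, 113, 130 and 106 CPM. Only POMC-C451Af/f pool 2 reached into the range of the controls. On the log2 scale its difference was -0.44 (95% interval -0.78 to -0.09), with an unadjusted p of 0.0187. *Slc16a10*, a transporter of thyroid hormones and aromatic amino acids, had a log2 fold change of -0.31 (unadjusted p of 0.0333). *Klf9*, another gene that thyroid hormone switches on, had a log2 fold change of 0.0076, and *Slco1c1*, a thyroxine transporter of brain vessels and astrocytes, had one of 0.17 (unadjusted p of 0.052). The adjusted p was 0.878 for each of the 4 genes with a lower estimate. Without POMC-C451Af/f pools 3 and 4, and so with 2 pools fewer, the log2 fold change was -0.11 for *Thrb* (unadjusted p of 0.0501), -0.035 for *Thra* (0.334), -0.29 for *Hr* (0.0454), -0.16 for *Slc16a10* (0.267) and 0.044 for *Slco1c1* (0.539). With the midbrain list mean as a covariate, a fit picked with the data in view, it was -0.078 for *Thrb* (unadjusted p of 0.144), -0.029 for *Thra* (0.514), -0.30 for *Hr* (0.1795) and -0.17 for *Slc16a10* (0.326).

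*Gpr50* (ENSMUSG00000056380.14), on chromosome X from 71663667 to 71669257 of GRCm38, encodes an orphan receptor of the melatonin receptor family that is concentrated in tanycytes. Its level was 16.5, 16.6, 13.8 and 14.6 CPM in POMC-C451Af/f pools 1 to 4, and 21.4, 14.7, 17.6 and 19.9 CPM in control pools 1 to 4. Control pools 1, 3 and 4 were above every POMC-C451Af/f pool, and control pool 2 lay among them (exact permutation, two-sided, p = 0.114). The log2 fold change was -0.26 (95% interval -0.50 to -0.01), with an unadjusted p of 0.0415 and an adjusted p of 0.878 (edgeR). Without control pool 2 it was -0.35 with an unadjusted p of 0.0028, and without control pool 1, the pool with the highest pituitary list, it was -0.18 with an unadjusted p of 0.129. An unadjusted p under 0.05 was found in 3 of the 8 fits with 1 pool left out. Without POMC-C451Af/f pools 3 and 4 the log2 fold change was -0.15 with an unadjusted p of 0.29. With the midbrain list mean as a covariate it was -0.22 with an unadjusted p of 0.183. Over the 8 pools *Gpr50* had a Pearson r of -0.88 with the summed thalamus list and of -0.83 with that of intermediate filaments. Without POMC-C451Af/f pool 3 and control pool 1, the farthest in both lists, these were -0.74 and -0.94. Both relations were singled out after their values had been seen. Of the melatonin receptors proper, *Mtnr1a* was at 0.278 to 0.667 CPM over the 8 pools with a log2 fold change of 0.15, and *Mtnr1b* did not pass the filter.

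*Nes* (ENSMUSG00000004891.17) encodes nestin, the intermediate filament protein of neural progenitors, which adult tanycytes keep. Its level was 14.1, 14.0, 13.9 and 15.2 CPM in POMC-C451Af/f pools 1 to 4, and 13.6, 12.0, 11.8 and 10.8 CPM in control pools 1 to 4. Every POMC-C451Af/f pool lay above every control, with pool 3 of the first close to pool 1 of the second. This lack of overlap alone fixes the exact permutation p (two-sided) at 0.0286, the lowest value open to 4 pools against 4. Genotypes differed by 0.25 on the log2 scale (95% interval 0.08 to 0.41), a level 18.6% higher, with an unadjusted p of 0.0072 and an adjusted p of 0.878 (edgeR). With each pool left out in turn it stayed between 0.20 and 0.31, and the unadjusted p was at most 0.0237. It was 0.22 without POMC-C451Af/f pools 3 and 4, and 0.30 in a fit with the mean of the midbrain list as a covariate, which was picked with the data in view. *Nes* is also made by dividing vessel cells and by other progenitors, so that its level in bulk tissue is not of tanycytes alone.

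*Vim* (ENSMUSG00000026728.10) encodes vimentin, a filament protein shared by tanycytes, ependymal cells, vessel walls and fibroblasts. It was at 39.6, 46.1, 34.96 and 36.2 CPM in POMC-C451Af/f pools 1 to 4, and at 46.8, 36.5, 42.7 and 36.2 CPM in control pools 1 to 4. The pools of both genotypes covered the same range. Its log2 fold change was -0.049 (95% interval -0.27 to 0.17). Among 8 other intermediate filament genes 1 of 8 had an unadjusted p under 0.05, *Synm*, which encodes synemin, with a log2 fold change of 0.13 (unadjusted p of 0.0421). *Nefl*, a neurofilament gene and the most abundant of these per kb, had a log2 fold change of 0.14 (unadjusted p of 0.0801). When POMC-C451Af/f pools 3 and 4 were left out, these were 0.073 for *Synm* (unadjusted p of 0.273) and 0.011 for *Nefl* (0.8293), and with the midbrain list mean as a covariate 0.075 (0.357) and -0.010 (0.896).

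Neural progenitor genes were given by a list of 12, all of them tested and none called. *Hes5*, an effector of Notch signaling, was the 1 gene of 12 with an unadjusted p under 0.05. It was at 14.3, 12.9, 12.1 and 12.6 CPM in POMC-C451Af/f pools 1 to 4, and at 11.3, 9.60, 10.7 and 11.0 CPM in control pools 1 to 4. As for *Nes*, every POMC-C451Af/f pool was above every control, where 2.78% of all tested genes had no overlap in either direction. Genotypes differed by 0.28 on the log2 scale (95% interval 0.12 to 0.45), with an unadjusted p of 0.0029 and an adjusted p of 0.878 (edgeR). The difference was 0.35 (unadjusted p of 0.0035) without POMC-C451Af/f pools 3 and 4, and 0.30 (0.0174) with the midbrain list mean as a covariate. *Fabp7*, a fatty acid binding protein of radial glia and the most abundant of the list per kb, had a log2 fold change of 0.06, and the list median was 0.03. *Sox2*, a factor of neural stem cells, had one of 0.04, and *Notch1*, a Notch receptor, one of 0.03.

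*Frzb* (ENSMUSG00000027004.4) encodes a secreted antagonist of Wnt ligands that is found in tanycytes. It was at 6.42, 6.53, 5.56 and 4.03 CPM in POMC-C451Af/f pools 1 to 4, and at 7.62, 5.41, 7.14 and 6.09 CPM in control pools 1 to 4. POMC-C451Af/f pool 4 was the lowest of all, as it was for *Rax*, and the other pools overlapped. Its log2 fold change was -0.22 (95% interval -0.57 to 0.13). It was -0.09 without that pool, -0.14 without control pool 1 and -0.019 without POMC-C451Af/f pools 3 and 4. Of 8 other secreted Wnt inhibitors 7 were tested, and *Dkk1* was not. *Sfrp5* had an estimate of 0.24 on the log2 scale (unadjusted p of 0.0063) and *Sfrp2* one of -0.21 (unadjusted p of 0.0397). Without POMC-C451Af/f pools 3 and 4 they were 0.21 (unadjusted p of 0.0445) and -0.14 (0.253), and with the midbrain list mean as a covariate 0.15 (0.137) and -0.22 (0.106). In all 3 fits these relatives of *Frzb* had estimates of opposite sign. *Dkk3*, the most abundant of the list per kb, had an estimate of -0.0030 with all pools. It was 0.058 without POMC-C451Af/f pools 3 and 4 and 0.063 with the midbrain list mean as a covariate.

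*Col25a1* (ENSMUSG00000058897.19) encodes a transmembrane collagen that marks tanycytes of the median eminence and is also made by neurons. Its level was 109, 109, 122 and 114 CPM in POMC-C451Af/f pools 1 to 4, and 99.2, 101, 101 and 108 CPM in control pools 1 to 4. Every POMC-C451Af/f pool lay above every control, and POMC-C451Af/f pool 3 was the highest. The exact permutation p of 0.0286 (two-sided), the lowest possible, only restates this lack of overlap. The log2 fold change was 0.15 (95% interval 0.05 to 0.25), a level 10.9% higher, with an unadjusted p of 0.0072 and an adjusted p of 0.878 (edgeR). The level moved with the summed midbrain list over the 8 pools, with a Pearson r of 0.94 and a Spearman rho of 0.83, and with an r of 0.76 without POMC-C451Af/f pools 3 and 4, the 2 farthest in that list. This relation was singled out after its value had been seen among the 162 of 9 genes with 18 lists. *Col25a1* also had an r of -0.85 with the list of hypothalamic neurons, 0.81 with that of intermediate filaments and -0.80 with that of thyroid hormone handling. Without the 2 pools farthest in each list these were -0.50, 0.22 and -0.75. The order of the pools in both measures can be read from the plot of levels against each other. Without these 2 pools the log2 fold change was 0.09 with an unadjusted p of 0.0689. When the midbrain list mean was added as a covariate, a fit picked with the data in view, the estimate was 0.056 with an unadjusted p of 0.247. The part of midbrain tissue in the level of *Col25a1* was not tested further. *Col23a1*, another transmembrane collagen with a place among tanycyte markers and the most abundant of 3 such genes per kb, had a log2 fold change of -0.15 (unadjusted p of 0.397), which was 0.12 (unadjusted p of 0.337) without POMC-C451Af/f pools 3 and 4. None of the 3 had an unadjusted p under 0.05, and the lowest was that of *Col17a1*, at 0.308.

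The upstream sequences of *Col25a1* and *Nes* are shown because these are the 2 members whose pools did not overlap. Both genes lie on chromosome 3 of GRCm38, *Nes* from 87971078 to 87980451 and *Col25a1* from 130131501 to 130599877, both on the plus strand. The sequence of *Col25a1* is the 250-base stretch before its RefSeq start, chr3:130180595-130180844 of GRCm38.p6, which is intronic for longer annotated transcripts of the same gene. The sequence of *Nes* is chr3:87970843-87971077, the 235 bases that end where its first annotated exon begins. In *Col25a1* the capitals mark a run of 16 bases, ATATATTATGCTAATA, that occurs in 2 copies, from 161 and from 75 bases before the start. In *Nes* they mark the 14 CG pairs:
Col25a1 upstream: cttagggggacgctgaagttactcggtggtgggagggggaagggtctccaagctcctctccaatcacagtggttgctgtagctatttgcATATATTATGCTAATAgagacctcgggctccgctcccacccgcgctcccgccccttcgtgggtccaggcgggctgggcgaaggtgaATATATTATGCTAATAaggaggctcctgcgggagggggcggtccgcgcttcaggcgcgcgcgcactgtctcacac
Nes upstream: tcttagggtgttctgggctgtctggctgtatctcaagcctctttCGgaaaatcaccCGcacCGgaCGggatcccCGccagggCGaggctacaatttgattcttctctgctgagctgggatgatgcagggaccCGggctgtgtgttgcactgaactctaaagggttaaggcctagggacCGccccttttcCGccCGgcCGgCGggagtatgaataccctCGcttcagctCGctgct
The 300-base promoter of *Col25a1* had a GC content of 60% and 23 CG pairs, and that of *Nes* had 58.7% and 18, where the median promoter of the table had 52.7% and 7. The repeat was found after the sequence had been seen. Of the 9 members, 7 had a promoter in the table, with 8 promoters between them. In none of the 8 was there a match, on either strand, to the homeodomain core TAATTA, which was in 5.29% of all promoters. The estrogen response element GGTCANNNTGACC was in 0.07% of all promoters and in none of the 8. The same held for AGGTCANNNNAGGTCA, a direct repeat bound by thyroid hormone receptors and present in 0.0152% of all promoters, and for the NFI motif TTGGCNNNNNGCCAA, present in 0.0365%. This says only that these letters are not in these windows.

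**Figure D4:**
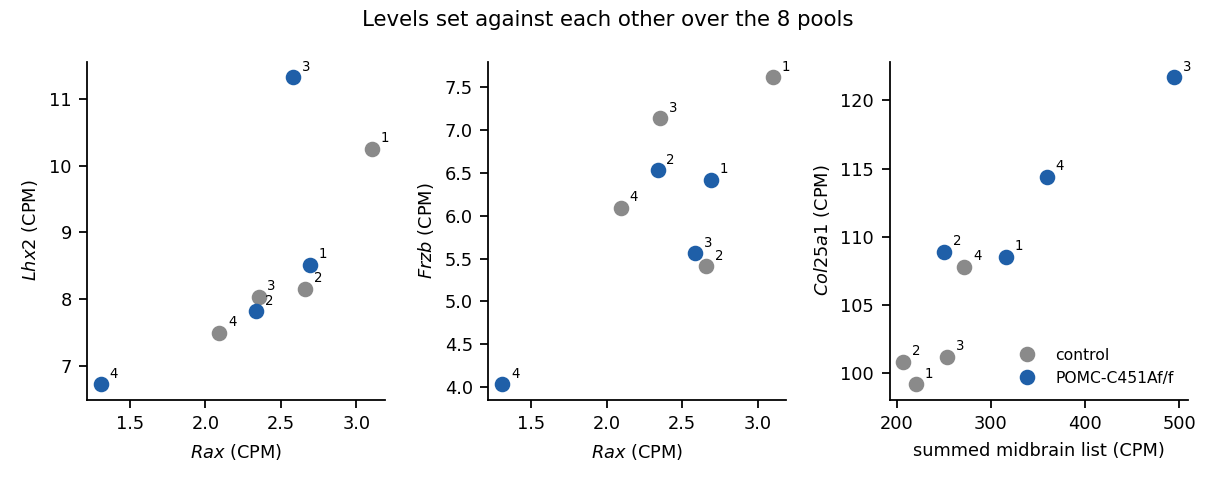
Lhx2 and Frzb against Rax, and Col25a1 against the summed level of 8 midbrain dopaminergic genes, all in CPM, with 1 point per pool and its replicate number (grey, control; blue, POMC-C451Af/f). POMC-C451Af/f pool 4 is lowest in Rax, Lhx2 and Frzb, and POMC-C451Af/f pool 3 is highest in Col25a1 and in the midbrain list.

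The 9 tanycyte genes did not all vary together over the pools. Among the 36 pairs of the 9 genes the median Pearson r of log2 levels over 8 pools was 0.14, with 10 pairs over 0.5 and 4 pairs under -0.5. The points share libraries, and these values are descriptions. *Rax* was most alike to *Frzb* among the other members (r 0.79, rho 0.45), and next to *Lhx2* (r 0.74, rho 0.86). Without POMC-C451Af/f pool 4 and control pool 1, the 2 pools farthest from the median of *Rax*, r was -0.38 for *Frzb* and 0.53 for *Lhx2*. The likeness of *Frzb* to *Rax* thus rested on those 2 pools, while part of that of *Lhx2* was present in the other 6. *Crym* had an r of 0.55 with *Rax* and *Col25a1* one of -0.43. The lowest r of any pair was -0.62, between *Col25a1* and *Gpr50*. In deviations from the genotype means this pair had an r of -0.30, and the lowest was -0.74, between *Col25a1* and *Vim*. *Vim*, *Crym*, *Gpr50* and *Frzb* formed a block, singled out after the values had been seen. Their 6 pairs had r between 0.60 and 0.74, and between 0.63 and 0.75 in deviations from the genotype means. All 4 ran opposite to the summed list of general neuronal genes, with r from -0.86 for *Vim* to -0.76 for *Frzb*. Without control pool 1 and POMC-C451Af/f pool 3, the farthest in that list, r was -0.74 for *Vim*, -0.66 for *Crym*, -0.61 for *Gpr50* and -0.78 for *Frzb*. With the summed list of hypothalamic neurons r was positive, at 0.90 for *Vim*, 0.66 for *Crym*, 0.75 for *Gpr50* and 0.70 for *Frzb*. Without the same 2 pools these were 0.92, 0.34, 0.30 and 0.84.

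Over all 18636 other tested genes the median r with *Rax* was 0.0078, and 16.0% of them had an r of 0.5 or more. *Frzb* ranked at place 458 and *Lhx2* at 738. The 5 genes most alike to *Rax* were *Psmb1*, which encodes a proteasome subunit, *Rbm42*, *Ctsf*, *Anxa9* and *Gng3*, with r between 0.97 and 0.98 and rho between 0.88 and 0.98. They are the extreme of a ranking over many genes and 8 pools. Without the 2 farthest pools their r was between 0.83 and 0.96. None of the 12 further tanycyte genes was among them, and the highest was *Col23a1* at an r of 0.80, which was -0.29 without the 2 farthest pools.

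*Vim* moved with markers of leptomeningeal fibroblasts, which are not tanycytes. Their 6 genes summed to 64.5, 101, 50.1 and 51.7 CPM in POMC-C451Af/f pools 1 to 4, and to 105, 61.2, 102 and 47.5 CPM in control pools 1 to 4. The r with *Vim* was 0.955 (rho 0.95), and 0.96 without control pools 1 and 3, the farthest in this list. It was singled out after its value had been seen among 162 such relations of 9 genes with 18 lists. *Vim* also moved with the summed genes of hypothalamic neurons (r 0.90, rho 0.95, and an r of 0.92 without POMC-C451Af/f pool 3 and control pool 1). Its r was -0.82 with the summed thalamus list (rho -0.74, and an r of -0.67 without the same 2 pools). Of the fibroblast genes 0 of 6 had an unadjusted p under 0.05, none was at 0, and the most abundant per kb was *Col1a2*. Estimates were lower for 6 of 6, against 49.6% of all tested genes, with a list median of -0.21. The median was 0.064 with 2 of 6 lower without POMC-C451Af/f pools 3 and 4. With the midbrain list mean as a covariate it was 0.25 with 0 of 6 lower. The lowest p of that list, 0.322, was that of *Slc6a13*, a transporter of the leptomeninges. The part of fibroblasts in the level of *Vim* was not tested.

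**Figure D5:**
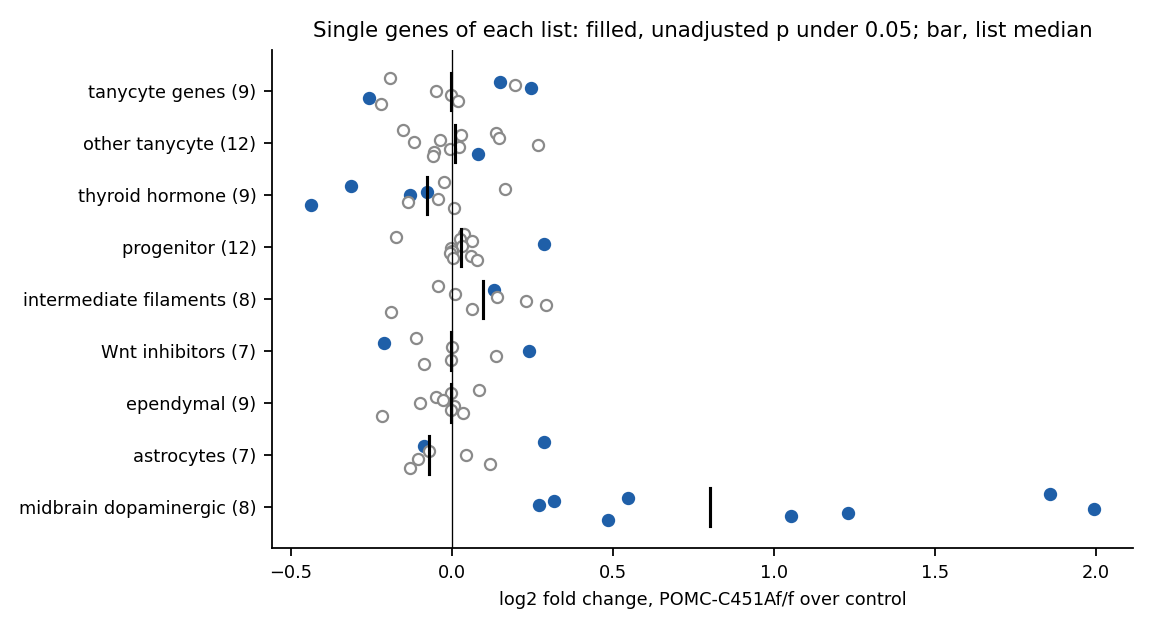
Log2 fold change of POMC-C451Af/f over control for the single genes of 9 lists, with the number of tested genes in brackets. Filled points have an unadjusted p under 0.05 in edgeR's quasi-likelihood test, the black bar is the list median, and the midbrain list, with a median of 0.80, is the only one of the 9 with every point filled.

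Among the 12 further tanycyte genes 1 of 12 had an unadjusted p under 0.05, and the list median was 0.0086, with 6 of 12 estimates lower. Without POMC-C451Af/f pools 3 and 4 the median was 0.081, with 2 of 12 lower. With the midbrain list mean as a covariate it was 0.066, with 3 of 12 lower. The 1 gene was *Ptn*, a secreted growth factor that is also made by astrocytes and neurons and the most abundant of the list per kb. *Ptn* was at 132, 136, 134 and 133 CPM in POMC-C451Af/f pools 1 to 4, and at 129.8, 119, 127 and 129.7 CPM in control pools 1 to 4. The pools did not overlap, and the log2 fold change was 0.08 (95% interval 0.0048 to 0.16), with an unadjusted p of 0.0394. It was 0.086 (unadjusted p of 0.0875) without POMC-C451Af/f pools 3 and 4, and 0.066 (0.205) with the midbrain list mean as a covariate. Ependymal cells, which share the ventricular wall with tanycytes, were given by 9 genes, of which 0 of 9 had an unadjusted p under 0.05. Their median was -0.0024, their most abundant gene per kb was *Foxj1*, the master factor of motile cilia, with a log2 fold change of 0.09, and the lowest p of 0.189 was that of *Spag16*, a cilia protein.

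Astrocytes share several genes with tanycytes, and 2 of 7 of their markers had an unadjusted p under 0.05. *Aqp4*, the water channel of astrocyte endfeet, was at 146, 139, 163 and 140.5 CPM in POMC-C451Af/f pools 1 to 4, and at 122, 118, 118 and 124 CPM in control pools 1 to 4. The pools were apart from each other, and the log2 fold change of 0.29 (95% interval 0.18 to 0.40) had an unadjusted p of 0.00015 and an adjusted p of 0.198 (edgeR). *Aldh1l1*, a folate enzyme that marks astrocytes, had a log2 fold change of -0.09 (unadjusted p of 0.0301), also without overlap, and *Agt*, angiotensinogen, the most abundant per kb, had one of -0.10. Without POMC-C451Af/f pools 3 and 4 it was 0.24 for *Aqp4* (unadjusted p of 0.0002), -0.087 for *Aldh1l1* (0.0562) and -0.035 for *Agt* (0.484). With the midbrain list mean as a covariate it was 0.19 (unadjusted p of 0.0055), -0.11 (0.0389) and -0.020 (0.714) in that order. *Aqp4* and *Aldh1l1*, markers of the same cells, thus differed in sign, and the list median was -0.07.

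The remaining cell types of the ventricular region and the pituitary were given by short lists. Of all tested genes 5.1% had an unadjusted p under 0.05 and 49.6% a lower estimate. Lower estimates were found for 2 of 7 endothelial, 5 of 6 mural, 3 of 6 choroid plexus and 5 of 5 pituitary genes. With the midbrain list mean as a covariate these were 2 of 7, 1 of 6, 1 of 6 and 2 of 5. Without POMC-C451Af/f pools 3 and 4, where *Lhb* was also tested, they were 2 of 7, 3 of 6, 4 of 6 and 5 of 6. The median of the pituitary list was -0.63 with all pools, 0.29 with the covariate and -1.15 without POMC-C451Af/f pools 3 and 4. Of 7 endothelial genes 1 had an unadjusted p under 0.05, *Tek*, the angiopoietin receptor, with a log2 fold change of 0.22 (unadjusted p of 0.0176, 0.134 at an estimate of 0.17 without POMC-C451Af/f pools 3 and 4, and 0.033 at 0.27 with the midbrain list mean as a covariate), and *Slc2a1*, the glucose transporter of brain vessels and the most abundant per kb, had one of -0.11. Of 6 mural cell genes none had a p under 0.05, *Vtn* was the most abundant per kb (log2 fold change of -0.11, and 0.036 without POMC-C451Af/f pools 3 and 4), and *Pdgfrb* had the lowest p of 0.253. Of 7 choroid plexus genes 6 were tested and *Slc4a5* was not. *Clic6* was the most abundant of them per kb (log2 fold change of -0.08) and *Ttr*, transthyretin, had the lowest p of 0.105, at a log2 fold change of 0.92 that was -0.09 without POMC-C451Af/f pools 3 and 4. The pituitary list had 5 of 8 genes tested with 0 of 5 under 0.05, and its lowest p was that of *Gh*, at 0.138.

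Neurons were given by 3 lists, of neurons in general, of the thalamus and of the hypothalamus. Of 6 general neuronal genes 0 had an unadjusted p under 0.05, and *Snap25*, a synaptic protein and their most abundant gene per kb, had a log2 fold change of 0.10 (unadjusted p of 0.0892), which was 0.011 without POMC-C451Af/f pools 3 and 4 and -0.00037 with the midbrain list mean as a covariate. Of 6 thalamus genes 1 had an unadjusted p under 0.05, *Slc17a6*, a vesicular glutamate transporter, with a log2 fold change of 0.14 (unadjusted p of 0.0479), and *Calb2* was the most abundant per kb. The log2 fold change of *Slc17a6* was 0.033 (unadjusted p of 0.52) without POMC-C451Af/f pools 3 and 4, and -0.016 (unadjusted p of 0.773) with the midbrain list mean as a covariate. Of 15 tested genes of hypothalamic neurons 13 had lower estimates in POMC-C451Af/f mice, against 49.6% of all tested genes, and the list median was -0.20. Lower estimates were found for 9 of 15 without POMC-C451Af/f pools 3 and 4, with a median of -0.024, and for 5 of 15 with the midbrain list mean as a covariate, with a median of 0.047. Of the 15 genes 3 had an unadjusted p under 0.05. These were *Trh*, the releasing hormone upstream of the thyroid axis, *Tac2* and *Pomc*. *Trh* was at 74.7, 82.7, 65.7 and 82.0 CPM in POMC-C451Af/f pools 1 to 4, and at 94.1, 86.3, 89.8 and 88.6 CPM in control pools 1 to 4. Every control lay above every POMC-C451Af/f pool, with a log2 fold change of -0.23 (95% interval -0.38 to -0.09) and an unadjusted p of 0.0054. *Tac2*, the gene of neurokinin B in arcuate neurons, had a log2 fold change of -0.20 (unadjusted p of 0.0067), and *Pomc* one of -0.59 (unadjusted p of 0.0319), in which control pool 1 was at 98.9 CPM. Without POMC-C451Af/f pools 3 and 4 the log2 fold change was -0.19 for *Trh* (unadjusted p of 0.0074), -0.13 for *Tac2* (unadjusted p of 0.018) and -0.32 for *Pomc* (unadjusted p of 0.256). With the midbrain list mean as a covariate it was -0.13 for *Trh* (unadjusted p of 0.141), -0.21 for *Tac2* (unadjusted p of 0.0312) and -0.24 for *Pomc* (unadjusted p of 0.438). Among the midbrain genes the lowest unadjusted p, 0.0020, was that of *Th*, tyrosine hydroxylase, which hypothalamic neurons also express, at a log2 fold change of 0.55.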

How the data were processed

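Hypothalamic poly(A) RNA of 8 pools was sequenced. The authors quantified transcripts with Salmon 1.10 against GENCODE annotation on GRCm39, summed them to genes with tximport and deposited estimated counts that are not normalized between pools. The submitters' processing notes also name FastQC 0.12.1, R 4.4 and DESeq2 1.40. The authors' deposited table of DESeq2 comparisons holds log2 fold changes with standard errors, p-values and adjusted p-values, and was not used. The counts carry no transcript lengths, so no length offsets were applied.

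Counts were rounded, filtered with filterByExpr (minimum count 10, minimum total 15), scaled with TMM factors of 0.984 to 1.02 and tested with edgeR 4.0.16 (glmQLFit and glmQLFTest) under R 4.3.3. Genotype was the sole term, with Benjamini-Hochberg adjustment over 18637 genes. Intervals used the absolute log2 fold change divided by the square root of F as standard error. Exact permutation tests and correlations used log2(CPM + 0.5). The procedure was tested on simulated data. All pairs of pools differed by more than sampling noise, with a chi-square per degree of freedom of 4.58 or more. Because animals were pooled in pairs, single animals would spread more widely than these pools.

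Transcript lengths and positions came from GENCODE M21 (GRCm38), without conversion to the authors' build. Of the identifiers, 51424 matched a symbol. Promoters are those of RefSeq on GRCm38.p6, 250 bases before to 50 after each start.

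The text names the 9 genes, and of each other list the most abundant member per kb, the member with the lowest p and every member with an unadjusted p under 0.05; the 5 genes with the highest r to *Rax*; and *Esr1* and *Pomc*. Outside this rule, *Klf9*, *Slco1c1*, *Sox2*, *Notch1* and genes that did not pass the filter were named after their values were seen. The members and lists were chosen with earlier results of these data known. Alternatives were DESeq2 1.42.0, its size factors, total counts, FDR alone, a filter of 10 counts in every pool, no filter, a replicate block, each pool left out, POMC-C451Af/f pools 3 and 4 left out together and, chosen after seeing the data, the midbrain list mean as a covariate.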

Additional observations from a re-analysis of the deposited data

Results flagged for a closer look

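In 54 groups of 4 pools, 1 pool far from the other 3 was looked for by its gap to the nearest pool as a share of the whole range, against the 95% critical value of Dixon. It was found in 4 groups, where chance gives about 2.7, since chance flags about 1 in 20 groups. *Nes* in POMC-C451Af/f mice had pool 4 at 15.2 CPM, while the other 3 lay between 13.9 and 14.1 CPM (gap 0.871 of the range). The melatonin receptors of the controls, of which only *Mtnr1a* was tested, were at 0.307 CPM in pool 3 and at 0.504 to 0.53 CPM in the other 3 (gap 0.886). The astrocyte markers of the controls summed to 1511 CPM in pool 2 and to 1561 to 1565 CPM in the other 3 (gap 0.926). The 5 tested anterior pituitary genes of the controls summed to 1450 CPM in pool 1 and to 22.5 to 96.8 CPM in the other 3 (gap 0.948). Causes of these gaps were not tested.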

How the results depend on the processing

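None of the 9 tanycyte genes was called in any of the 16 alternative fits or by FDR alone, and the lowest adjusted p of a member in any of them was 0.468. Of the 144 alternative log2 fold changes of the 9 genes, 128 kept their sign and 16 reversed, all of *Vim*, *Crym* and *Lhx2*, whose estimates lie near 0. With POMC-C451Af/f pools 3 and 4 left out together these were 0.079 for *Vim*, 0.34 for *Crym* and -0.053 for *Lhx2*, and in the fit with the midbrain list mean, picked with the data in view, 0.13, 0.35 and -0.11. With each pool left out in turn they ranged from -0.14 (without POMC-C451Af/f pool 2) to 0.025 (without control pool 1) for *Vim*, from -0.14 (without POMC-C451Af/f pool 1) to 0.16 (without control pool 1) for *Crym* and from -0.14 (without POMC-C451Af/f pool 3) to 0.12 (without control pool 1) for *Lhx2*. The cause was not tested. The midbrain covariate itself differed between genotypes, so a smaller estimate or a lost p under it cannot be ascribed to midbrain tissue. The fit with this covariate left 1 of the 9 genes, *Nes*, with an unadjusted p under 0.05 in place of 3. Of all tested genes 2.96% had such a p in that fit, in place of 5.1%. The log2 fold change was then -0.22 for *Gpr50* and 0.056 for *Col25a1*, against -0.26 and 0.15 in the main fit. Leaving out single pools gave 2 to 4 of the 9 genes with such a p. Over all genes, 4 were called by edgeR, against 12 by DESeq2, which was fitted without the filter on low counts. The number was 2 with at least 10 counts in every pool (fewer genes tested), 7 without POMC-C451Af/f pools 3 and 4, and 4 to 5 with each pool left out. The replicate block called 2 genes and put the members' median at -0.025 on the log2 scale. In that fit 3 of 9 had an unadjusted p under 0.05, against 6.06% of all tested genes. Same-numbered pools had correlations of their deviations of 0.14, -0.18, -0.11 and 0.24. Whether such pools share more than a number is not given by the labels and was not tested. At 47.0 to 125 counts, *Rax* is the member whose precision depth limits most.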
